A study of Homo sapiens with 6 samples.

Results

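The 9 genes described here are the AP-2 transcription factor genes TFAP2A, TFAP2B and TFAP2C and a set of genes that mark or specify the neural crest: FOXD3, MSX1, MSX2, PAX3, PAX7 and NGFR. They were taken by name from the 59653 gene symbols of the count table. The libraries are mRNA-seq of PA1, an established human ovarian teratocarcinoma line labelled as wildtype. All cells were transfected while attached to the dish, either with a negative control or with small interfering RNA (siRNA) directed at SOX2, a transcription factor of pluripotent and neural progenitor cells. The design text mentions 2 siRNAs to SOX2, and whether each library received both is not given in the sources used here. After 24 h both groups were moved to poly-HEMA plates, which prevent attachment, and RNA was taken after a further 72 h. Each group had 3 libraries, control siRNA replicates 1 to 3 and SOX2 siRNA replicates 1 to 3. Nothing in the labels says that replicates came from separate cultures, so p-values measure the spread between these libraries, which may be technical.

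AP-2 proteins bind GC-rich DNA as dimers. TFAP2A acts in surface ectoderm, at the border of the neural plate and in the neural crest, and TFAP2C is best known from trophoblast and germ cells. The neural crest arises at the neural plate border, leaves the neural tube and forms peripheral neurons, glia, pigment cells and parts of the face. MSX and PAX3/PAX7 factors act early, at the border, while FOXD3, SOX10 and SNAI2 act once crest cells are specified. FOXD3 is also known from pluripotent cells.

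Libraries held 25152313 to 32753184 counts, so that 3 counts, taken here as the detection floor, were worth 0.0908 to 0.12 CPM (counts per library size, with TMM factors, which lay between 0.991 and 1.01). Without molecular identifiers, PCR copies are counted too, and this floor reflects counting error alone. SOX2 itself fell from 255 ± 10.1 to 52.4 ± 2.21 CPM (SD, n = 3), which is 20.5% of the control level. Of the 8 embryonal markers checked, POU5F1, LIN28A, LIN28B, SALL4 and DNMT3B were abundant, DPPA4 and L1TD1 low, and TDGF1 had at most 3 counts in any library. Together the 8 summed to 1480 to 1510 CPM in control and 2110 to 2130 CPM in SOX2 siRNA libraries. LIN28A alone had means of 705 CPM in control and 1147 CPM after SOX2 siRNA, and POU5F1, LIN28B and DNMT3B were also called higher. SALL4, DPPA4 and L1TD1 did not pass the test. Markers of keratinocytes, trophoblast and blood had at most 3 counts in any library for 5 of 6, 5 of 7 and 4 of 6 genes. Markers of Schwann cells and melanocytes summed to 129 to 131 CPM in control and 171 to 182 CPM in SOX2 siRNA libraries, with SOX10 among those called higher and CDH19 and TYR at 0 counts. Endothelial markers summed to 91.6 to 94.9 CPM in control and 70.1 to 72.6 CPM in SOX2 siRNA libraries. Among them PECAM1, CDH5 and VWF were called lower, and TIE1 was called higher (means of 16.9 and 20.2 CPM). Fibroblast markers, mostly COL1A1, summed to 305 to 352 and 400 to 451 CPM. The part of these marker lists in the results below was not tested.

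After SOX2 siRNA, TFAP2C fell to 43.7% and TFAP2A to 74.4% of the control level. FOXD3 rose 2.68-fold from a low level, and NGFR, the p75 neurotrophin receptor gene, fell to 71.5%. MSX1, MSX2, PAX3 and TFAP2B did not pass the test, and PAX7 was too low to be tested. Thus 4 of the 8 tested genes had an adjusted p under 0.05 (edgeR quasi-likelihood test, Benjamini-Hochberg adjustment over all 17592 tested genes), where 28.2% of all tested genes did. The 1 higher gene stands beside a background of 14.8%, and the 3 lower genes beside 13.4%. FOXD3 was called at least 2-fold higher, as were 1.57% of tested genes, and TFAP2C at least 2-fold lower, as were 1.59% (3.17% in either direction). For 5 of the 8 genes control and SOX2 siRNA libraries did not overlap, against 41.8% of tested genes: 4 were lower throughout (20.3% of tested genes) and 1 higher (21.5%). The median log2 fold change of the 8 genes was -0.07, that of all tested genes -0.00085. RNA came from whole cultures, so fewer cells expressing a gene and less RNA per cell cannot be told apart.

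**Figure D1:**
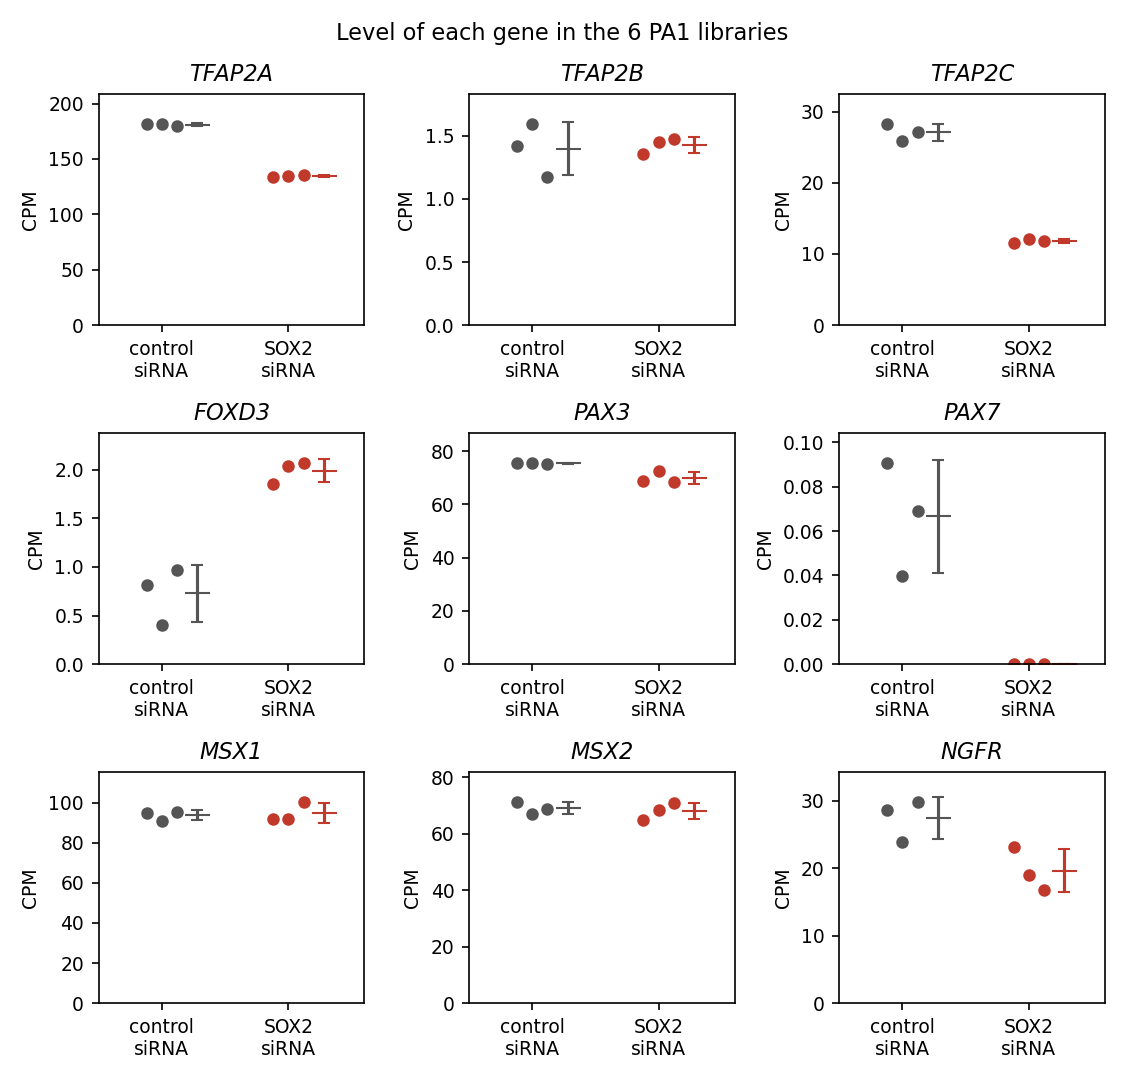
Level of each gene in CPM (linear axes from 0) in the 3 control siRNA (grey) and 3 SOX2 siRNA (red) libraries, with points for replicates 1 to 3 from left to right and the mean ± SD beside them. TFAP2A, TFAP2C and NGFR lie lower and FOXD3 higher in all SOX2 siRNA libraries, MSX1, MSX2 and TFAP2B overlap, and PAX7 is at or under the floor throughout.

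TFAP2A, on the minus strand of chromosome 6 (10393186 to 10419659, GRCh38, GENCODE 29), was the most abundant AP-2 gene. Control replicates 1 to 3 held 6007, 4560 and 5189 TFAP2A counts, and SOX2 siRNA replicates 1 to 3 held 4041, 4342 and 4061. On the CPM scale these were 182, 182 and 179 against 134, 134 and 136. The replicates lay close together in each group and the groups stood far apart. The log2 fold change was -0.43 (SE 0.034; edgeR adjusted p = 4.07e-08). In control cells 94.1% of tested genes had a lower mean CPM than TFAP2A.

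TFAP2C (chromosome 20, 56629302 to 56639283, plus strand) showed the larger proportional loss. Its counts were 935, 650 and 784 in control and 349, 393 and 355 in SOX2 siRNA libraries. Levels were 28.3, 25.9 and 27.1 CPM against 11.6, 12.1 and 11.9 CPM. All 3 SOX2 siRNA libraries lay well below the lowest control library, replicate 2. The log2 fold change was -1.19 (SE 0.063; edgeR adjusted p = 1.52e-10), and 1.3% of tested genes had a lower one.

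TFAP2B (chromosome 6, 50818723 to 50847613, plus strand), a paralogue known from kidney, limb and crest derivatives, was near the lower end of detection. It had 47, 40 and 34 counts in control and 41, 47 and 44 in SOX2 siRNA libraries, and the groups overlapped. Means were 1.4 ± 0.211 and 1.43 ± 0.0614 CPM (SD, n = 3). The log2 fold change was 0.034 with a 95% interval from -0.40 to 0.47 (edgeR adjusted p = 0.93), which spans 0.759-fold to 1.38-fold.

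Of the AP-2 genes outside the 9, TFAP2D had 0 counts in all 6 libraries, which allows up to 0.12 CPM in the shallowest of them. TFAP2E had 41, 20 and 27 counts in control and 28, 24 and 18 in SOX2 siRNA libraries, overlapping between groups (log2 fold change -0.40, 95% interval -0.97 to 0.17; edgeR adjusted p = 0.308).

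Levels between paralogues were compared per kilobase, dividing CPM by the summed length of coding-transcript exons in GENCODE 29. The whole AP-2 family then summed to 44.1, 43.1 and 43.0 CPM per kilobase in control and 29.4, 29.6 and 29.8 in SOX2 siRNA libraries. After SOX2 siRNA 68.2% of the family total remained. The TFAP2C share of that total was 20.8% ± 0.698 in control and 13.3% ± 0.292 after SOX2 siRNA (SD, n = 3). TFAP2A made up 77.6% ± 0.861 and 84.7% ± 0.295. The remaining members, TFAP2E and TFAP2B, held 1.04% and 0.555% in control. These shares depend on the gene length used, which the SD does not cover. In CPM, without division by length, TFAP2C held 12.9% ± 0.494 in control and 7.98% ± 0.18 after SOX2 siRNA.

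Whether TFAP2C differed by more than TFAP2A was examined within libraries. The log2 ratio of TFAP2C to TFAP2A counts was -2.68, -2.81 and -2.72 in control and -3.53, -3.46 and -3.51 in SOX2 siRNA libraries, a difference of -0.76. For TFAP2B to TFAP2A the difference was 0.46, and for TFAP2C to TFAP2B it was -1.22, again without overlap of the groups. An exact two-sided permutation test gave p = 0.1 for each of these 3 ratios, the smallest value that 3 against 3 libraries allow, and 0.133 after Benjamini-Hochberg adjustment over the 4 ratios tested. This permutation test therefore cannot go below 0.05 here, whatever the size of the difference.

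**Figure D2:**
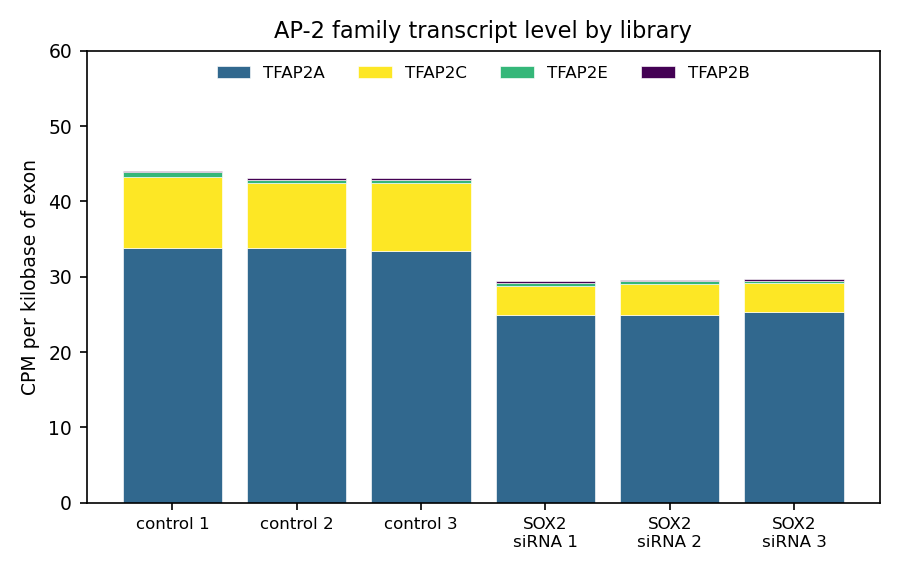
AP-2 family transcript level in each library, in CPM per kilobase of exon, stacked by gene; TFAP2D is left out because it had 0 counts. The stack falls from 43.0 to 44.1 in the controls to 29.4 to 29.8 after SOX2 siRNA, and the TFAP2C layer shrinks most in proportion.

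FOXD3, a single-exon forkhead gene (chromosome 1, 63323041 to 63325126, plus strand), moved in the other direction. It had 27, 10 and 28 counts in control and 56, 66 and 62 in SOX2 siRNA libraries. In CPM these were 0.817, 0.399 and 0.968 against 1.85, 2.04 and 2.07. All SOX2 siRNA libraries lay above all control libraries, and control replicate 2 was the lowest of all. The log2 fold change was 1.42 (SE 0.256, 95% interval 0.88 to 1.96; edgeR adjusted p = 4.05e-04). FOXD3 stayed a rare transcript, with 12.3% of tested genes below it in control.

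FOXD3-AS1, a non-coding gene on the opposite strand, overlaps FOXD3 exons over 179 bases. It had 25, 24 and 21 counts in control and 40, 58 and 33 in SOX2 siRNA libraries, so both genes of the pair were higher (log2 fold change 0.80, SE 0.25; edgeR adjusted p = 0.0233). The FOXD3-AS1 call was lost with DESeq2 and without control replicate 1, control replicate 3 or SOX2 siRNA replicate 2. Whether counting used strand is not given in the sources used here, so reads from the shared stretch cannot be assigned to either gene with certainty. Of 50-base windows of the FOXD3 transcript, 5.01% occur in FOXD3-AS1 or the paralogue FOXD2, and of those of TFAP2A 8.79% occur in its antisense genes. The 2 antisense genes of TFAP2A share 438 and 941 exon bases with it but were rare. TFAP2A-AS1 was at 0.813 ± 0.0533 and 0.815 ± 0.178 CPM and TFAP2A-AS2 at 0.684 ± 0.0638 and 0.638 ± 0.18 CPM in control and after SOX2 siRNA, respectively (SD, n = 3), with edgeR adjusted p of 0.997 and 0.835.

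Promoter windows were read from RefSeq (GRCh38.p14, 250 bases before to 50 after each start), which matched 7 of the 9 genes in 8 windows; TFAP2C and NGFR were not matched. They were searched on both strands for the AP-2 palindrome GCCNNNGGC and for the SOX core sequences ATTGTT and ATTGTC. No window of these genes held the AP-2 palindrome, which occurs in 23.2% of the 35116 promoter windows. ATTGTT or ATTGTC occurred in 3 of the 8 windows, those of TFAP2B, FOXD3 and the downstream start of TFAP2A, and in 16.1% of all windows. Other forms of SOX or AP-2 sites were not searched or marked, so a window or stretch without a match may still hold one. A match describes letters only, not binding. The 3 stretches are shown because they are the matches found, 5′ to 3′ on the strand of the gene, with the SOX core or its reverse complement in capitals; they lie at chr6:10412562-10412587 (minus strand), chr6:50818747-50818772 (plus) and chr1:63322438-63322463 (plus).
TFAP2A: tttaggtctgATTGTCctcgctcgct
TFAP2B: tgtccagcctATTGTTtgagacaaca
FOXD3: tccctttgttGACAATtccctgaacc
The 250 bases before the RefSeq start of FOXD3 (chr1:63322317-63322566), the 1 higher gene of the set, are given whole to show where that match sits. The GENCODE start of FOXD3 lies 474 bases further downstream.
FOXD3 upstream: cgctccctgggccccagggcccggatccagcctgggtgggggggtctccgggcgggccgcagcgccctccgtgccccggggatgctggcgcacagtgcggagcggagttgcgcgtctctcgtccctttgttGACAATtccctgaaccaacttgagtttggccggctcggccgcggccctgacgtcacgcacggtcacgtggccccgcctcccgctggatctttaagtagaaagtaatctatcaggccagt
Of the 3 genes with a match to the SOX sequences searched, TFAP2A fell, FOXD3 rose and TFAP2B passed no test. A link between the matches and these changes was not tested.

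The border factors MSX1 and MSX2 are homeobox genes induced by BMP signals. MSX1 (chromosome 4, 4859666 to 4863936, plus strand) measured 95, 90.8 and 95.3 CPM in control and 91.6, 91.8 and 100.4 CPM in SOX2 siRNA libraries. MSX2 (chromosome 5, 174724533 to 174730893, plus strand) measured 71.3, 67.1 and 68.8 CPM against 65.0, 68.3 and 70.8 CPM. Both genes overlapped between groups. For MSX1, SOX2 siRNA replicate 3 was the highest library, and without it the log2 fold change was -0.034. Log2 fold changes were 0.013 for MSX1 (95% interval -0.08 to 0.11; edgeR adjusted p = 0.87) and -0.023 for MSX2 (95% interval -0.12 to 0.07; edgeR adjusted p = 0.756). Together the intervals cover changes between 0.922-fold and 1.08-fold. Per kilobase, MSX1 made up 61.4% ± 0.469 of the pair in control and 61.9% ± 0.677 after SOX2 siRNA (SD, n = 3), and the log2 ratio of MSX1 to MSX2 overlapped between groups (two-sided exact permutation p = 0.3).

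PAX3 (chromosome 2, 222199888 to 222298996, minus strand), a paired-box factor of the dorsal neural tube, crest and muscle precursors, differed slightly. It measured 75.5, 75.7 and 75.3 CPM in control and 68.8, 72.6 and 68.5 CPM in SOX2 siRNA libraries. The groups did not overlap, and SOX2 siRNA replicate 2 lay nearest to the controls. The log2 fold change was -0.11 (SE 0.041, 95% interval -0.20 to -0.023) with an edgeR adjusted p of 0.0549, just short of the threshold. The adjusted p fell under 0.05 with total counts (0.0415), upper-quartile scaling (0.0206) and a filter of 10 counts in every library (0.0484), and over all alternatives it ranged from 0.0206 to 0.147.

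PAX7 (chromosome 1, 18631006 to 18748866, plus strand), the paralogue of PAX3 that marks crest and muscle stem cells, had 3, 1 and 2 counts in control and 0 in each SOX2 siRNA library. Both groups are at or under the floor of 3 counts per library, and no fold is given. PAX3 made up 99.9% of the summed CPM of the pair in control.

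NGFR (chromosome 17, 49495293 to 49515017, plus strand), whose product binds neurotrophins and is used to sort crest cells, fell with a wide spread. It had 944, 598 and 863 counts in control and 697, 612 and 502 in SOX2 siRNA libraries. In CPM these were 28.6, 23.8 and 29.8 against 23.1, 18.9 and 16.8. Control replicate 2 and SOX2 siRNA replicate 1 nearly met, at 23.8 and 23.1 CPM. The log2 fold change was -0.49 (SE 0.138, 95% interval -0.83 to -0.15; edgeR adjusted p = 0.0438). The call was lost without control replicate 1 (edgeR adjusted p = 0.134), control replicate 3 (0.122) or SOX2 siRNA replicate 2 (0.142), and with total counts (0.0541); over all alternatives it ranged from 1.31e-08 to 0.142. Of its 50-base transcript windows, 23.0% also occur, on the opposite strand, in 2 non-coding genes, which had 0 counts and at most 1 count in any library.

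**Figure D3:**
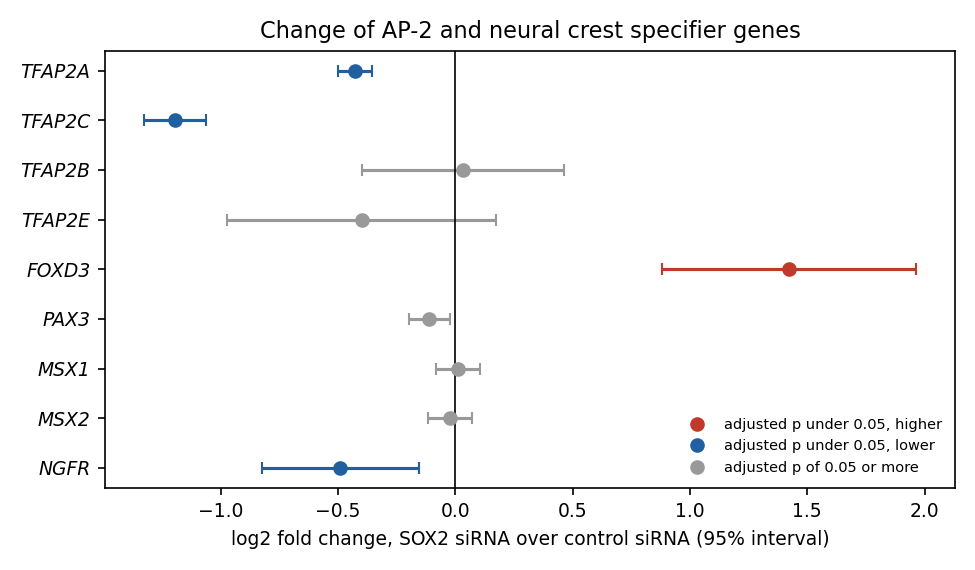
Log2 fold change of SOX2 siRNA over control siRNA with 95% intervals for the 8 tested genes and TFAP2E, coloured by adjusted p. TFAP2A, TFAP2C and NGFR lie left of 0 and FOXD3 right of 0; the intervals of MSX1 and MSX2 are narrow around 0 and those of TFAP2B and TFAP2E are wide.

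Ordered per kilobase in control cells, MSX1 was highest at 48.3 (46.8 to 49.1 over the 3 libraries), followed by TFAP2A at 33.7 ± 0.269, MSX2 at 30.4 ± 0.93 and PAX3 at 18.3 ± 0.0461 CPM per kilobase (SD, n = 3). TFAP2C at 9.02 ± 0.396 and NGFR at 6.6 ± 0.76 came next. FOXD3 at 0.349 ± 0.141 and TFAP2B at 0.241 ± 0.0364 overlapped in control, the only neighbours in this order whose libraries did, and PAX7 was last. After SOX2 siRNA the order changed at 2 places: MSX2 (30 ± 1.29) stood above TFAP2A (25 ± 0.204), and NGFR (4.72 ± 0.769) above TFAP2C (3.94 ± 0.0983), where the lowest NGFR library (4.05) all but met the highest of TFAP2C (4.04). FOXD3, at 0.953 ± 0.0568, no longer overlapped TFAP2B. Dividing by the longest coding transcript instead put TFAP2A at 47.3 in control, overlapping MSX1, and at 35.1 after SOX2 siRNA, still above MSX2.

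The genes whose 6 library values, centred on their own mean, lay nearest to each called gene were found among 14849 genes by Euclidean distance of log2 CPM. For TFAP2A these were NHSL2 and ZFHX3 (distances 0.0422 and 0.0431), and for TFAP2C DPYSL3 and TNC (0.129 and 0.13). NGEF and LINC02588 were nearest to NGFR (0.123 and 0.135). FOXD3 had more distant matches, AC010931.1 and SYNE3 (0.4 and 0.462). The same libraries and scaling enter every profile, so these distances are a description.

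Proteins that work with AP-2 were examined as a list of 8 genes, all tested, of which 3 rose and 1 fell. The background for this count and those of the lists that follow is 28.2% of all tested genes called, 14.8% higher and 13.4% lower. CITED1 and CITED2, co-activators that link AP-2 to CBP/p300, rose with log2 fold changes of 0.84 and 0.53. CITED2 measured 86.3 ± 4.62 CPM in control and 124.5 ± 1.98 CPM after SOX2 siRNA (SD, n = 3; edgeR adjusted p = 4.08e-08). KCTD15, an inhibitor of TFAP2A activity and of crest formation, rose from 8.7 ± 0.333 to 14.0 ± 0.333 CPM (log2 fold change 0.69; edgeR adjusted p = 1.77e-06). WWOX fell by 0.31 on the log2 scale. The list's median of -0.025 stood beside -0.00085 over all tested genes.

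Among 14 further neural plate border genes, 13 were tested, 5 rose and 3 fell, and the median log2 fold change was 0.10. The distal-less genes DLX6 and DLX5 fell by 1.32 and 0.91, from 9.38 ± 0.397 to 3.75 ± 0.179 CPM and from 9.21 ± 1.24 to 4.9 ± 0.264 CPM. GBX2, a homeobox gene of the anterior hindbrain, fell by 0.81. Border genes therefore moved in both directions while MSX1 and MSX2 passed no test.

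Crest specifiers other than the 9 genes mostly rose. Of 18 listed, 15 were tested, and 12 rose and 2 fell, where 14.8% of all tested genes rose and 13.4% fell. The median log2 fold change was 0.70. SOX10, the glial and pigment lineage factor, rose by 1.54 on the log2 scale, from a control mean of 3.13 ± 0.43 CPM to 9.2 ± 0.783 (SD, n = 3; edgeR adjusted p = 2.31e-08). TWIST1 and SNAI2, drivers of delamination, rose by 1.5 and 1.49, from 3.2 ± 0.446 to 8.99 ± 0.494 CPM and from 4.57 ± 0.22 to 12.8 ± 0.825 CPM. ID3, a BMP target, rose by 1.04. The 2 that fell, named after their values were seen, were LMO4 (-0.52) and ZEB2 (-0.43). The list was drawn up with earlier results of these data known, so its count is not independent evidence of a direction. SOX10 is also among the Schwann cell markers, whose sum was higher after SOX2 siRNA.

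Of 21 genes of migrating crest and its derivatives only 8 had enough counts to be tested, of which 3 rose and 2 fell. ERBB3, a neuregulin receptor of crest and glial cells, rose by 0.56 on the log2 scale (edgeR adjusted p = 2.03e-08), with means of 45.5 ± 0.961 CPM in control and 66.9 ± 0.756 CPM after SOX2 siRNA (SD, n = 3). EDNRB, the endothelin receptor of crest cells, fell from 366 ± 12 to 188 ± 7.03 CPM (log2 fold change -0.96, edgeR adjusted p = 3.95e-12). POU4F1 fell by 1.93 at a low level, from 0.966 ± 0.137 to 0.249 ± 0.102 CPM. The autonomic gene PHOX2A and the pigment gene TYR had 0 counts in all libraries.

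For partners and ligands of NGFR the median log2 fold change was 0.05. Of 17 such genes 16 were matched and 11 tested; ARHGDIA rose (0.33), and ADAM17, TRAF6, LINGO1 and BEX3 fell by 0.27, 0.26, 0.23 and 0.12 on the log2 scale. The Trk receptor genes NTRK2 and NTRK3 had at most 8 counts in any library and were not tested, while SORT1, a co-receptor, was at 128.5 ± 3.14 and 133 ± 0.698 CPM without passing the test (edgeR adjusted p = 0.337).

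Of 13 partners and muscle targets of PAX3 and PAX7, 4 were tested and 3 rose, namely TBX6 (1.63), MET (0.53) and SIX4 (0.50). The muscle determination genes MYF5 and MYOG had 0 counts in all libraries, and MYOD1 had 1 count in 1 library.

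Epithelial genes included 7 tested of 14, with 2 higher and 2 lower. The keratin genes KRT18 and KRT8, of simple epithelia, rose by 0.49 and 0.42, and CLDN6 and GRHL3 fell by 0.71 and 0.46 on the log2 scale. Germ cell genes studied together with TFAP2C had 5 tested of 13 matched. PRDM14 fell from 36.8 ± 1.91 to 8.71 ± 0.333 CPM (log2 fold change -2.08; edgeR adjusted p = 1.31e-13) and DAZL from 9.05 ± 0.206 to 5.18 ± 0.358 CPM, whereas PRDM1 rose by 0.56. SOX17 and NANOS3 had at most 3 counts in any library.

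**Figure D4:**
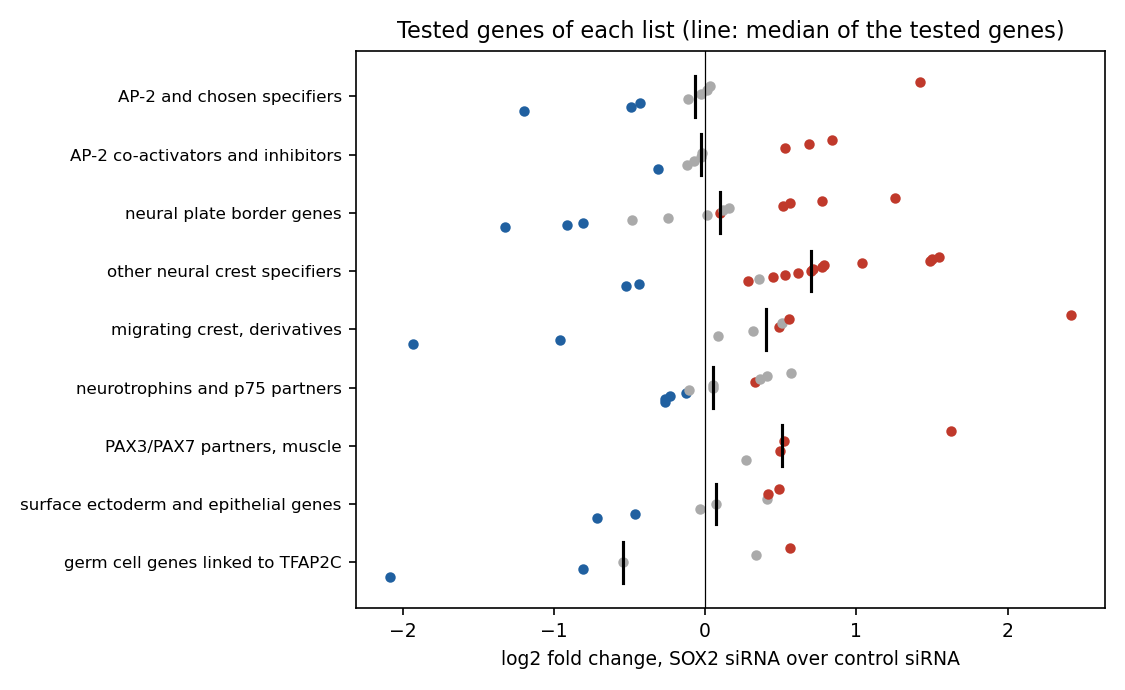
Log2 fold change of the tested genes of each list, 1 point per gene, in red where called higher, blue where called lower and grey otherwise, with the list's median as a black line; vertical offsets within a list only separate points. The other crest specifiers lie mostly right of 0 (median 0.70), while the AP-2 and chosen specifier genes (median -0.07) fall on both sides.

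Flanking genes were examined, by a choice made after the values of the 9 genes were seen, as the nearest tested protein-coding gene on either side. Of 18 such neighbours 6 were called, 2 higher and 4 lower, a share near the 28.2% of all tested genes, so the count is no result about the neighbours and the values are given as a description. Neither neighbour of TFAP2A (SLC35B3 and GCNT2) or of TFAP2C (RTF2 and BMP7) passed the test, with log2 fold changes of 0.15, 0.042, -0.076 and -0.086. Both neighbours of FOXD3 went against it: ATG4C fell by 0.58 and ALG6, at a distance of 42.4 kb, by 0.16. Also called, at low levels, were C6orf141 (-1.28) and PKHD1 (1.17) beside TFAP2B, and NXPH3 (0.62) beside NGFR. EPHA4, 625.7 kb from PAX3, fell from 53.8 to 20.5 CPM (log2 fold change -1.39; edgeR adjusted p = 1.28e-12), and SGPP2 on the other side of PAX3 passed no test (-0.33).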

How the data were processed

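The authors deposited raw read counts per gene symbol, whole numbers with 1 column per library. Per the submitters' processing notes, bcl2fastq 2.20.0, STAR 2.7.3a, Salmon 0.14.1, DESeq2 1.28.1 and GRCh38.p13 were used, without roles; the counting step, use of strand and annotation are not given in the sources used here, so whether the counts are rounded estimates is unknown. The library kit was KAPA mRNA HyperPrep, per the labels' protocols.

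From these counts, genes were kept with filterByExpr (minimum count 10), scaled by TMM and tested with edgeR 4.0.16 (glmQLFit with robust=TRUE, glmQLFTest; R 4.3.3) on group, with Benjamini-Hochberg adjustment and a threshold of 0.05. Standard errors were derived from the F statistic, and 95% intervals from its degrees of freedom. Paralogue log2 ratios used a prior count of 2 and exact permutation tests (scipy 1.17.1). Positions, lengths and overlaps came from GENCODE 29, and promoters from RefSeq. Alternatives were other scalings and filters, DESeq2 1.42.0, limma-voom (limma 3.58.1), leaving out each library, a replicate block and, added after seeing the data, another gene length. The fits were tested on simulated data.

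The genes and lists were chosen with earlier results of these data known. Besides the 9 genes, the genes named are up to 4 called genes per list by size of log2 fold change, lists of 3 genes or fewer in full, and the 2 genes nearest in profile to each called gene. Other list members, the flanking genes and the markers were named after their values were seen. Samples were grouped by title, and columns were assigned by description. Some genes that this rule selects are not reported here by name; they remain in the counts and medians of their lists.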

Additional observations from a re-analysis of the deposited data

How the results depend on the processing

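TFAP2A, TFAP2C and FOXD3 kept their direction and their call under all 14 alternatives, with log2 fold changes from -0.448 to -0.421, -1.22 to -1.16 and 1.16 to 1.66. NGFR lost its call with total counts (-0.492); leaving out 1 library gave -0.626 to -0.394, with the call kept in 3 of 6 fits. PAX3 gained a call with total counts (-0.114), upper-quartile scaling (-0.13), 10 counts in every library (-0.111) and the replicate block (-0.111), and ranged from -0.14 to -0.0976 without 1 library. Values near 0 changed sign: MSX1 with upper-quartile scaling (-0.00752) and from -0.0343 to 0.0313 without 1 library, MSX2 from -0.0556 to 0.00439 and TFAP2B from -0.0755 to 0.132. Without a filter PAX7 entered the test and was not called. The cause was not tested.

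Between 3 and 5 of the genes were called, and 3760 to 5212 of all genes. The replicate block called 5177 genes in all; same-numbered libraries did not deviate together (correlations of 0.0868, -0.0377 and -0.0311), so the numbers are not taken to pair the libraries, and among the 9 genes only the PAX3 call changed. Counts of called genes in the lists stayed within 1.5 times, except for the non-coding neighbours, where the single call (FOXD3-AS1) was lost with DESeq2 (0 called) and counts ran from 0 to 1 without 1 library. The difference between groups in the TFAP2C to TFAP2A log2 ratio ranged from -0.796 to -0.733. Depth limits TFAP2B, TFAP2E, FOXD3 and PAX7.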
